A study of Ambystoma mexicanum with 12 samples.

Results

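The effect of a high dose of talarozole (TAL) on gene expression at the wrist level was examined by setting distal forelimb blastemas of axolotls (Ambystoma mexicanum) kept with 1 uM TAL against distal blastemas of animals kept with the vehicle dimethyl sulfoxide (DMSO). The comparison used 6 of the 12 RNA-seq libraries, 3 per group, and was read over the 56805 of 99081 gene identifiers that begin with AMEX60DD but not with AMEX60DDU. Of these, 21537 passed a filter on low counts. All animals were white (d/d), aged 3 months and 5 cm long, and each RNA sample pooled 3 blastemas, frozen 14 days post amputation (dpa). Distal blastemas followed amputation through the middle of the carpus. Exposure through the housing water started at 4 dpa and lasted 7 days for TAL and DMSO alike, so tissue was taken after exposure had ended. Distal blastemas at 0.1 uM TAL and proximal blastemas (upper humerus) with DMSO, 3 libraries each, entered the fit that estimates the spread and are given beside the results.

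A blastema is the bud of proliferating progenitor cells that regrows an amputated salamander limb. Retinoic acid acts through nuclear receptors that switch target genes on or off. It is broken down by enzymes of the CYP26 family, which talarozole inhibits. In salamander limbs, added retinoic acid is known to give a distal blastema a more proximal identity, so that it regrows parts that were never removed. The comparison asks which transcripts respond when the breakdown of the retinoic acid made by the limb itself is blocked. The identifiers could not be paired with gene names here, since 0 of them matched the RefSeq gene list used, so genes are given by identifier without a role. For the same reason neither the CYP26 genes nor markers of the tissue could be looked up, and the labelled tissue was not checked against them. In pools of tissue, fewer cells of a type and less RNA per cell cannot be told apart.

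Depth differed between the groups. The AMEX60DD identifiers received 12696464, 11677626 and 10675662 estimated counts in 1 uM TAL replicates 1 to 3, and 7510706, 9079449 and 9809815 in DMSO distal replicates 1 to 3. Every TAL library was thus deeper than every DMSO library, with means of 11683251 ± 1010413 and 8799990 ± 1174755 (SD, n = 3 each; two-sided exact permutation test, p = 0.1, the lowest possible with 3 against 3). DMSO distal replicate 1 stood apart. Its 10 most abundant AMEX60DD genes held 31.9% of the counts, against 9.34% and 16.5% in the other DMSO distal libraries and 7.97 to 16.5% in the 1 uM TAL libraries. AMEX60DDU identifiers took 15.9% of all its counts, against 8.90 to 11.8% in the other 5 libraries. Its Spearman correlation with the others across AMEX60DD genes, which are not independent replicates, was 0.822 to 0.870, while all pairs without it lay between 0.885 and 0.913. At equal depth the groups held similar numbers of detected AMEX60DD genes, 27160 ± 332 at 1 uM TAL and 27012 ± 385 in DMSO distal (SD, n = 3 each; two-sided exact permutation test, p = 0.6).

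With 1 uM TAL, 2 AMEX60DD genes rose and 6 fell against DMSO distal at a Benjamini-Hochberg adjusted p under 0.05 (edgeR quasi-likelihood test over all 41884 identifiers that passed the filter). The 2 that rose (0.00478% of all identifiers were called higher) did so by 16.8- and 14.8-fold, and the 6 that fell dropped to between 0.0355 and 0.152 of their mean in DMSO distal (0.0191% of all identifiers were called lower). The 8 genes are 0.0371% of the AMEX60DD genes tested, beside 0.0239% of all identifiers tested. In all 8 the 3 libraries of the 1 group lay clear of the 3 libraries of the other. The calls rest on the same values, so this adds no support. It also held for all 7 AMEX60DD genes at an edgeR adjusted p of 0.05 to 0.1. At an unadjusted p under 0.05 there were 1158 AMEX60DD genes, 5.38% of those tested, beside 4.79% of all identifiers (edgeR). With no difference between the groups, 5% would be expected to pass, so both shares lay near that level.

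AMEX60DD009927 rose. It was measured at 1.18, 5.10 and 3.01 CPM (counts relative to library size, after TMM scaling) in DMSO distal replicates 1 to 3 and at 54.9, 50.8 and 51.4 CPM in 1 uM TAL replicates 1 to 3. The TAL libraries lay close together and far above the DMSO libraries. The means were 52.4 ± 2.23 CPM at 1 uM TAL and 3.09 ± 1.96 CPM in DMSO distal (SD, n = 3 each). The log2 fold change was 4.07 with an SE of 0.439 (edgeR adjusted p = 0.0319).

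AMEX60DD016524 also rose, but with more spread under TAL. Its level was 1.06, 3.43 and 2.55 CPM in DMSO distal replicates 1 to 3 and 29.6, 28.5 and 47.4 CPM in 1 uM TAL replicates 1 to 3. The third TAL library was the highest, and the groups did not overlap, as the rule for naming genes required. The means of 2.35 ± 1.20 CPM in DMSO distal and 35.2 ± 10.6 CPM at 1 uM TAL (SD, n = 3 each) put the log2 fold change at 3.89 with an SE of 0.457 (edgeR adjusted p = 0.0399).

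AMEX60DD021956 fell to the edge of detection. It stood at 16.2, 11.3 and 10.4 CPM in DMSO distal replicates 1 to 3, from 137, 122 and 114 counts. In the 1 uM TAL replicates it stood at 0.392, 0.693 and 0.257 CPM, which rest on 6, 9 and 3 counts. All TAL libraries were therefore low, and their differences from each other lie within the error of such small counts. The log2 fold change was -4.78 with an SE of 0.480 (edgeR adjusted p = 0.0319).

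AMEX60DD012191 fell from a similar starting level. DMSO distal replicates 1 to 3 held 11.9, 18.5 and 10.5 CPM and 1 uM TAL replicates 1 to 3 held 1.04, 0.847 and 0.943 CPM. The vehicle libraries varied more in absolute terms than the TAL libraries. No library of the 1 group reached the other, as the rule for naming genes required. The log2 fold change was -3.83 with an SE of 0.343 (edgeR adjusted p = 0.0319). The other 4 genes that fell had log2 fold changes of -3.43 to -2.71 and adjusted p of 0.0319 to 0.0399 in the same test. Their DMSO distal libraries ranged from 8.38 to 63.8 CPM and their 1 uM TAL libraries from 0.718 to 10.96 CPM, with means of 11.4 to 59.8 CPM and 1.05 to 8.90 CPM per gene.

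**Figure D1:**
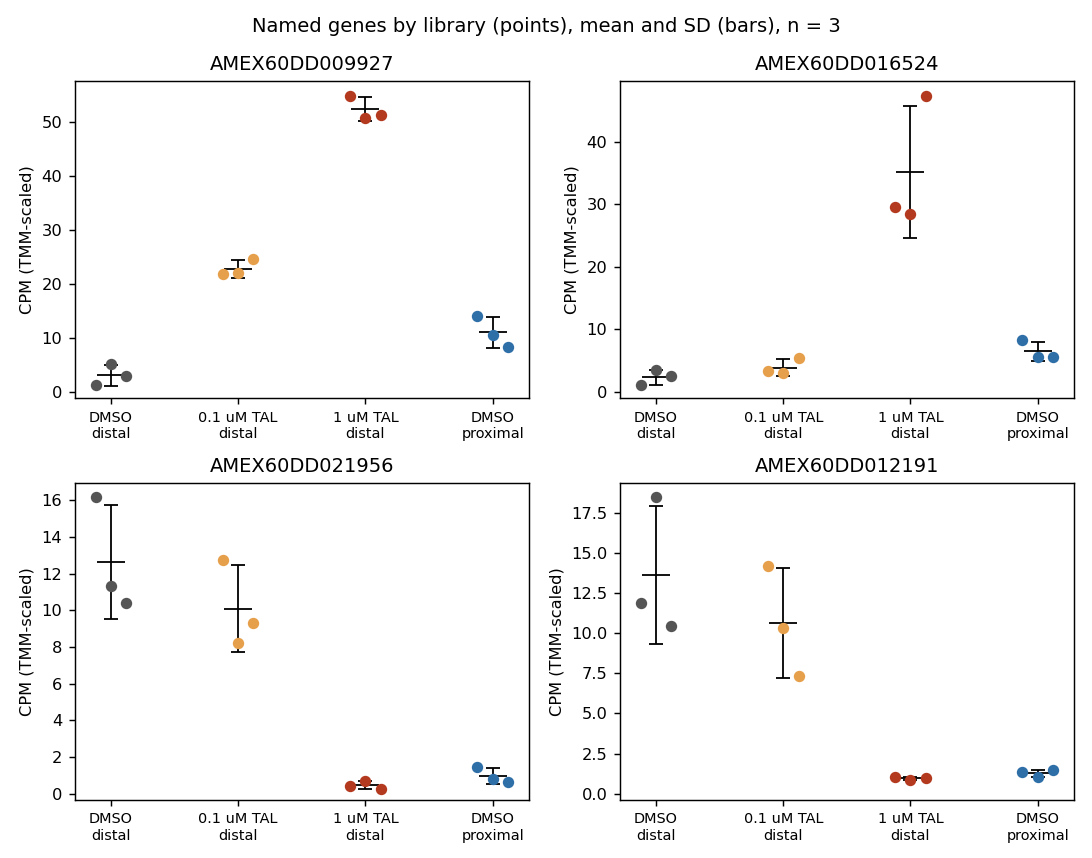
CPM of the 4 named genes in each of the 12 libraries (points), by group, with the mean and SD of 3 libraries (bars). The genes in the upper panels, AMEX60DD009927 and AMEX60DD016524, are highest at 1 uM TAL, and those in the lower panels, AMEX60DD021956 and AMEX60DD012191, are low at 1 uM TAL and in DMSO proximal blastemas.

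The groups outside the comparison placed these genes differently. AMEX60DD009927 was at 21.8, 21.96 and 24.7 CPM in the 0.1 uM TAL libraries and at 14.0, 10.6 and 8.38 CPM in the DMSO proximal libraries, between DMSO distal and 1 uM TAL in both cases. AMEX60DD016524 was at 3.27, 2.97 and 5.41 CPM at 0.1 uM TAL, overlapping the DMSO distal libraries, and at 8.25, 5.55 and 5.59 CPM in DMSO proximal libraries. AMEX60DD021956 stayed at 12.7, 8.19 and 9.29 CPM at 0.1 uM TAL and was at 1.42, 0.775 and 0.608 CPM in DMSO proximal libraries. AMEX60DD012191 showed the same arrangement, with 14.2, 10.3 and 7.35 CPM at 0.1 uM TAL and 1.33, 1.03 and 1.46 CPM in DMSO proximal libraries. Both genes that fell were thus near the vehicle level at the lower dose and near the 1 uM TAL level in proximal blastemas.

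The difference between the doses was tested in the same fit. It was called for 4 AMEX60DD genes, all lower at 1 uM than at 0.1 uM TAL, with log2 fold changes of -4.45 to -2.92 and edgeR adjusted p of 0.0236 to 0.0486, where 0.0119% of all identifiers were called. All 4 are among the 6 that fell against DMSO distal, and the 1 uM TAL libraries serve in both comparisons. With 1 library left out, 0 AMEX60DD genes were called between the doses in 10 of 12 fits (edgeR, 860 to 1793 at an unadjusted p under 0.05). There was 1 without 1 uM TAL replicate 3, which was not among the 4. Without 0.1 uM TAL replicate 3 there were 13, which included all 4. The 860 were of 23448 AMEX60DD genes tested and the 1793 of 23427, where 5% would be expected to pass with no difference. AMEX60DD021956 was lower at 1 uM with a log2 fold change of -4.45 and an SE of 0.474 (edgeR adjusted p = 0.0388), and AMEX60DD012191 with -3.47 and an SE of 0.338 (edgeR adjusted p = 0.0236). For the genes that rose, the change between the doses did not pass. AMEX60DD016524 had a log2 value of 3.17 with an SE of 0.441 (edgeR adjusted p = 0.0938) and AMEX60DD009927 one of 1.20 with an SE of 0.389 (edgeR adjusted p = 0.728).

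The AMEX60DDU identifiers entered that fit and bear on it. They made up 20347 of the 41884 tested, and the common biological coefficient of variation was 1.01 over all identifiers and 0.548 over AMEX60DD identifiers fitted alone. The median log2 fold change at 1 uM TAL was -0.49 over AMEX60DDU identifiers and 0.12 over AMEX60DD genes, where 63.8% of the tested genes were above 0. With AMEX60DD identifiers fitted alone the median over those genes was -0.01, so this scaling moved it by over 0.1 on the log2 scale. The same held for the genes whose libraries did not overlap between the groups. With all identifiers, 2497 AMEX60DD genes lay higher (11.6% of those tested, beside 6.88% of all identifiers) and 973 lower (4.52%, beside 5.2%) at 1 uM TAL. Scaled on AMEX60DD identifiers alone, 1920 lay higher (8.93% of 21504 tested) and 1847 lower (8.59%). The split between higher and lower genes thus differed between the scalings, and the direction of each of the 4 named genes was the same in both.

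Fitted alone, 52 AMEX60DD genes were called at 1 uM TAL against DMSO distal (0.242% of 21504 tested, edgeR adjusted p under 0.05), 17 higher (0.0791%) and 35 lower (0.163%). This fit was listed as an alternative to the fit of all identifiers. The 52 include all 8 genes above. AMEX60DD009927 had a log2 fold change of 3.97 (edgeR adjusted p = 0.00460) and AMEX60DD016524 of 3.80 (adjusted p = 0.0111). AMEX60DD021956 had -4.95 (edgeR adjusted p = 0.00460) and AMEX60DD012191 -3.97 (adjusted p = 0.00214). Between adjusted p of 0.05 and 0.1 lay 25 more genes, 7 higher and 18 lower. In the same fit 40 AMEX60DD genes were called between 1 uM and 0.1 uM TAL (0.186%), 6 higher and 34 lower at 1 uM. AMEX60DD016524 passed there, with a log2 fold change of 3.03 between the doses (edgeR adjusted p = 0.0188), and AMEX60DD009927 did not, with 1.05 (edgeR adjusted p = 0.344).

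The 17 genes that rose had a median log2 fold change of 2.0003, and the 16 of them with counts in both groups spanned 0.74 to 4.87. The remaining gene had 0 counts in all DMSO distal libraries and a mean of 1.18 CPM at 1 uM TAL, at least 10.4-fold higher when 3 counts over the group are taken as the floor. The 35 genes that fell had a median of -2.02, and the 34 with counts in both groups spanned -4.95 to -0.56. The remaining gene had 0 counts at 1 uM TAL and a mean of 1.40 CPM in DMSO distal, at least 17.9-fold lower by the same floor. Neither median changed with these genes at their bound. A change of 4-fold or more was fitted for 9 of the 17 and 18 of the 35.

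Most of the 52 genes were moderately abundant. By their mean over both groups, 30 lay at 10 to 100 CPM, 15 at 1 to 10 CPM, 5 above 100 CPM and 2 under 1 CPM. Of the genes tested, calls made up 0.503% at 10 to 100 CPM and 0.507% above 100 CPM, against 0.120% at 1 to 10 CPM and 0.0967% under 1 CPM. The median SE of the log2 fold change was 0.18 at 10 to 100 CPM, 0.17 above 100 CPM, 0.41 at 1 to 10 CPM and 1.86 under 1 CPM. The error was thus largest for rare transcripts. The 5 called genes above 100 CPM comprised 2 that rose, with log2 fold changes of 1.65 and 1.43, and 3 that fell, with -4.79 to -1.76. The 2 that rose had means of 140.1 and 382.9 CPM in DMSO distal and of 439.7 and 1028.4 CPM at 1 uM TAL. The 3 that fell ranged from 219.6 to 588.4 CPM in DMSO distal and from 16.1 to 144.6 CPM at 1 uM TAL.

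**Figure D2:**
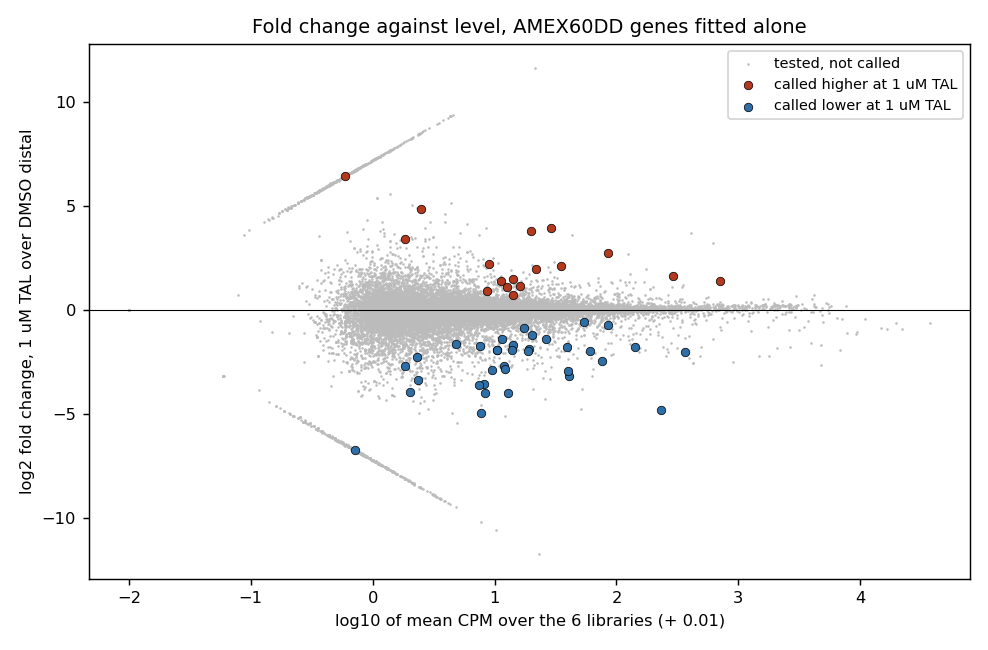
Log2 fold change of 1 uM TAL over DMSO distal (vertical) against the log10 of the mean CPM of the 6 libraries (horizontal) for 21504 AMEX60DD genes fitted alone; red points are the 17 genes called higher and blue points the 35 called lower. The spread narrows as the level rises, and the straight outer arms are mostly genes at or near 0 counts in 1 of the groups, where the fitted value depends on the prior count.

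Abundant genes were counted in the same way. Of the 987 AMEX60DD genes above 100 CPM in the fit on AMEX60DD identifiers alone, 200 had all TAL libraries above all DMSO distal libraries, with a median log2 fold change of 0.24, and 80 had them all below, with a median of -0.47. These are 20.3% and 8.11% of the genes above 100 CPM, beside 8.93% and 8.59% of all AMEX60DD genes tested. With all identifiers fitted, 909 genes lay above 100 CPM, of which 170 (18.7%) were higher and 36 (3.96%) lower without overlap, with median log2 fold changes of 0.36 and -1.01. In that fit the shares were 11.6% and 4.52% of all AMEX60DD genes tested, and 6.88% and 5.2% of all identifiers. In the fit on AMEX60DD identifiers alone, 20 of the 200 and 22 of the 80 reached a 2-fold change. The share of genes at or past 2-fold in either direction was 6.99% above 100 CPM, 4.92% at 10 to 100 CPM, 15.5% at 1 to 10 CPM and 48.1% under 1 CPM. Over all tested AMEX60DD genes the median absolute log2 fold change was 0.25 in this fit, below its median SE of 0.35.

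The level of the 52 genes was then followed through every library, as the median over the genes of log2 CPM (0.5 added) relative to the DMSO distal mean. The 35 genes that fell had medians of 0.23, -0.03 and -0.20 in DMSO distal replicates 1 to 3 and of -1.92, -1.92 and -2.12 in 1 uM TAL replicates 1 to 3. These values chose the genes and are given as a description. At 0.1 uM TAL the medians of the same 35 genes were 0.32, -0.01 and -0.30, on both sides of the DMSO distal mean. In DMSO proximal libraries they were -1.21, -1.30 and -1.44, between DMSO distal and 1 uM TAL.

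The 17 genes that rose had medians of -0.10, 0.09 and -0.01 in DMSO distal replicates 1 to 3 and of 1.51, 1.66 and 1.92 in 1 uM TAL replicates 1 to 3. At 0.1 uM TAL they were at 0.59, 0.71 and 0.53, above every DMSO distal library and below every 1 uM TAL library. In DMSO proximal libraries they were at 1.20, 1.14 and 1.10. The median over all tested AMEX60DD genes stayed between -0.06 and 0.01 in the 12 libraries. Because the same DMSO distal libraries form the reference for all these medians and helped choose the genes, the levels at 0.1 uM TAL and in proximal blastemas are not an independent test.

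**Figure D3:**
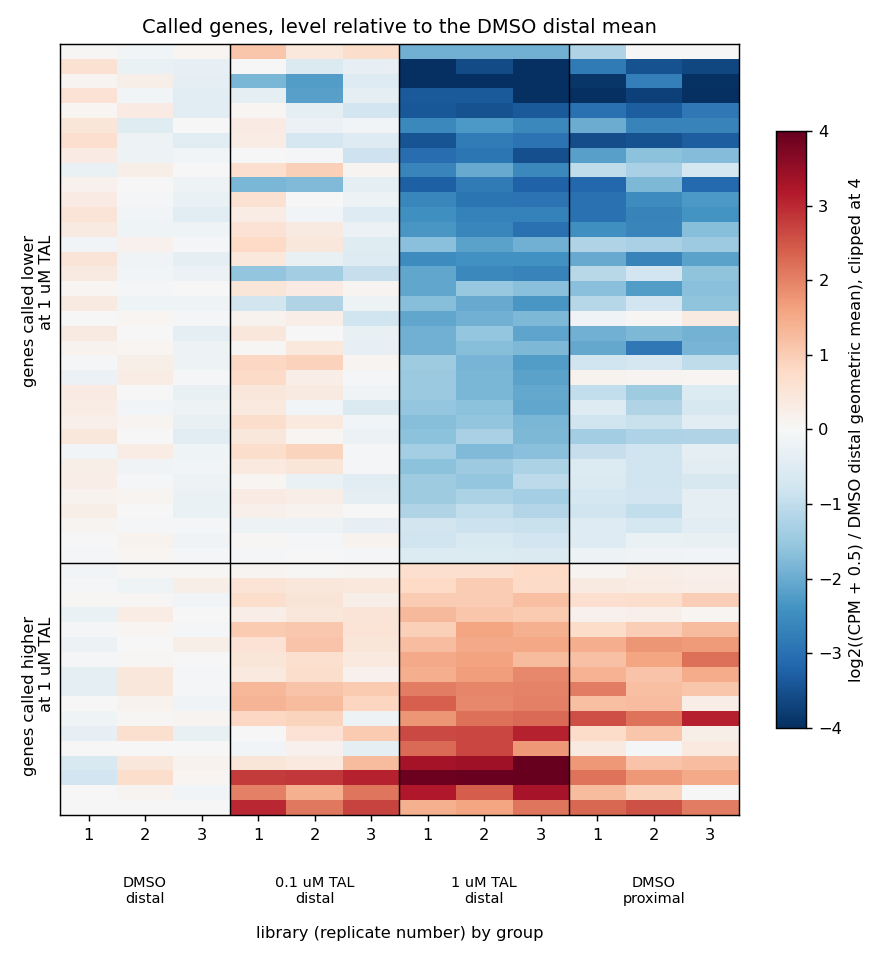
Level of each of the 52 genes called with AMEX60DD identifiers fitted alone (rows, ordered by fold change) in the 12 libraries (columns, 3 per group), as log2 of CPM plus 0.5 relative to the DMSO distal mean, with colours clipped at 4 in either direction. The 35 genes called lower are blue at 1 uM TAL and mostly near white at 0.1 uM TAL, where their library medians were 0.32, -0.01 and -0.30.

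Some genes had counts in the libraries of only 1 group. Of the 56805 AMEX60DD genes, 125 (0.22%) had 0 counts in all DMSO distal libraries and at least 10 counts in total spread over all 3 libraries at 1 uM TAL, and 73 (0.129%) had the reverse. Over all 99081 identifiers the same rule held for 253 (0.255%) and 239 (0.241%). The filter on low counts kept 55 of the 125 and 31 of the 73. Since the rule itself fixes the difference between the groups, no test is given for these sets as a whole. With all identifiers fitted in edgeR, 0 genes of either set were called. Also with all identifiers, the DESeq2 Wald test called 9 of the 125 and 10 of the 73, and limma voom 1 and 3. Over all AMEX60DD genes these 2 tests called 241 of 39309 and 34 of 21537. In the fit on AMEX60DD identifiers alone, 1 of the 125 and 1 of the 73 were among the 52 genes called (0.242% of those tested, edgeR). They are the genes whose fold is given above as a bound. The TAL libraries were also deeper. With the 6 libraries thinned to equal depth, the medians of 5 draws were 106 (101 to 109) and 74 (68 to 76). Of the 125 genes, 86 had counts in at least 1 library at 0.1 uM TAL and 39 had none. Of the 73, these numbers were 53 and 20.

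The calls depended on which libraries entered the fit. With all identifiers fitted, leaving out 1 library also raised the number of AMEX60DD genes tested, from 21537 to between 23082 and 23469. The parts of the missing library and of the changed gene set in the lost calls were not told apart. With all identifiers fitted, the count of 8 AMEX60DD genes became 0, 0 and 1 without 1 uM TAL replicates 1, 2 and 3 (edgeR). The 1 gene was not among the 8. Without DMSO distal replicates 1, 2 and 3 the count became 2, 2 and 0 (edgeR), all from the 8. It also moved when libraries outside the comparison were left out, to 0 without 0.1 uM TAL replicate 2, 3 without DMSO proximal replicate 1 and 0 without DMSO proximal replicate 2 or 3. Where the count was 0, 735 (of 23123 tested) to 1212 (of 23469 tested) AMEX60DD genes had an unadjusted p under 0.05 (edgeR). With no difference between the groups, 5% of the genes tested would be expected to pass. With AMEX60DD identifiers fitted alone, the count of 52 became 5, 6 and 6 without 1 uM TAL replicates 1, 2 and 3. It became 8, 16 and 11 without DMSO distal replicates 1, 2 and 3, and 28 without 0.1 uM TAL replicate 1. Here too the genes tested rose, from 21504 to between 23190 and 23571. At an unadjusted p under 0.05 (edgeR), 1557 of 21504 passed with all libraries. Without 1 uM TAL replicates 1, 2 and 3, 1142 of 23230, 1244 of 23271 and 1255 of 23225 passed. Without DMSO distal replicates 1, 2 and 3, 1148 of 23428, 1600 of 23219 and 1549 of 23190 passed. Without DMSO distal replicate 1, the library that stood apart, all 8 genes still called in that fit were among the 52. Both fits share all their other libraries, so this overlap is not independent support. These 8 include AMEX60DD009927 and AMEX60DD012191, which were also called with all identifiers fitted. The rest were not matched against the 8 of that fit.

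The calls of the named genes differed between the fits. In the fit on AMEX60DD identifiers alone, AMEX60DD009927 and AMEX60DD012191 were called in all 12 fits with 1 library left out, with a highest edgeR adjusted p of 0.0369 for each. AMEX60DD016524 and AMEX60DD021956 were called in 11 of the 12, with a highest edgeR adjusted p of 0.0553 and 0.0551. The named genes were chosen as called with all 12 libraries. Each of these fits uses the same libraries but for 1, so the repeated calls are not independent support. Across these fits the log2 fold change ranged from 3.68 to 4.44 for AMEX60DD009927 and from 3.50 to 4.09 for AMEX60DD016524. It ranged from -5.41 to -4.57 for AMEX60DD021956 and from -4.15 to -3.78 for AMEX60DD012191. With all identifiers fitted, the same genes were called in only 3, 1, 3 and 5 of the 12 fits, in the order AMEX60DD009927, AMEX60DD016524, AMEX60DD021956 and AMEX60DD012191, always in the same direction. Over the alternatives to the fit of all identifiers that gave a value, those with 1 library left out included, AMEX60DD009927 was called in 9 of 22, AMEX60DD016524 in 6 of 21, AMEX60DD021956 in 7 of 21 and AMEX60DD012191 in 10 of 21. With limma voom both named genes that fell missed the threshold, with adjusted p of 0.0691 for AMEX60DD021956 and 0.0530 for AMEX60DD012191. Both named genes that rose passed it, with limma voom adjusted p of 0.00181 for AMEX60DD009927 and 0.0129 for AMEX60DD016524. The DESeq2 Wald test called all 4 named genes (adjusted p of 1.81e-23 to 7.90e-15).

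**Figure D4:**
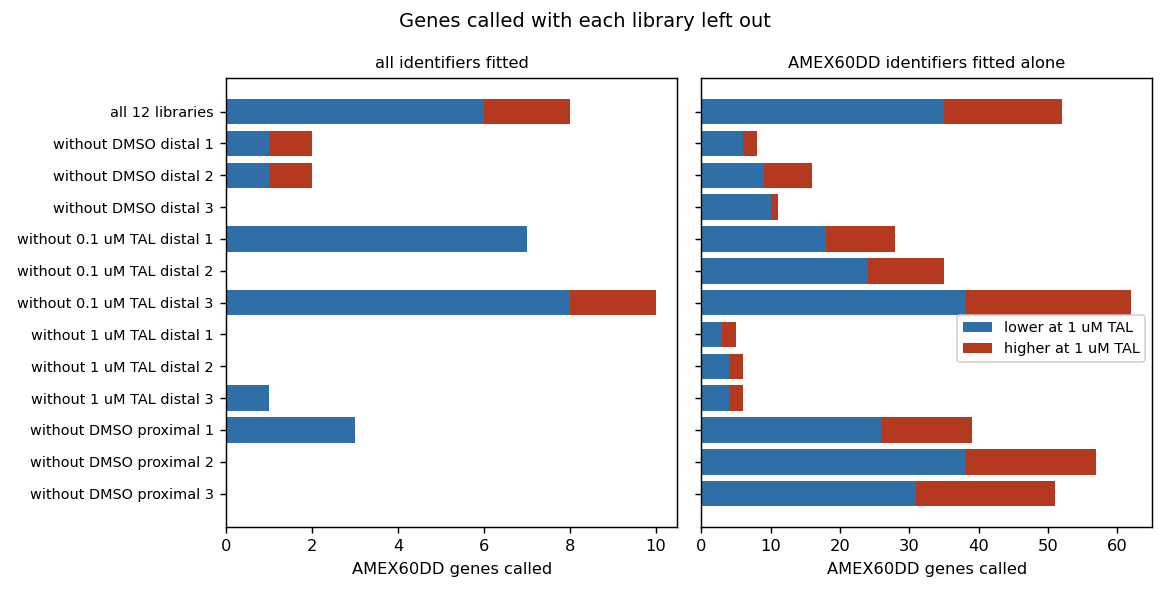
Number of AMEX60DD genes called between 1 uM TAL and DMSO distal with all 12 libraries and with each library left out, for the fit of all identifiers (left) and of AMEX60DD identifiers alone (right); blue is lower and red higher at 1 uM TAL. The counts run from 0 to 10 on the left and from 5 to 62 on the right, and leaving out a 1 uM TAL library gives 5 or 6 genes on the right.

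The replicates of the groups differed in how tightly they agreed. Over the 6486 AMEX60DD genes at 10 CPM or more, the median SD of log2 CPM between replicates was 0.304 in DMSO distal, 0.150 at 1 uM TAL, 0.220 at 0.1 uM TAL and 0.271 in DMSO proximal libraries. The 1 uM TAL libraries were the deepest and the DMSO distal group held the library that stood apart. The CPM were scaled with TMM over all identifiers, and an offset of a library in that scaling would add to the SD of every gene. The part of depth, of that library or of the scaling in this difference was not tested.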

How the data were processed

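RNA-seq libraries of pooled blastemas were analysed from the estimated counts per gene that the authors deposited, with 1 column per library, produced with Trimmomatic 0.38 and Salmon 0.13.1 per the submitters' processing notes. The index and annotation are not given in the sources used here. Of 15 columns, 3 matched no labelled sample and were not used. Groups and replicate numbers came from the sample titles. Nothing states that replicate pools were separate clutches, so p-values measure the spread between these pools. Estimated counts were rounded, filtered with filterByExpr, scaled with TMM and tested with edgeR 4.0.16 (glmQLFit, glmQLFTest, R 4.3.3) in 1 fit of 12 libraries over all identifiers, with Benjamini-Hochberg adjustment. The SE is the absolute log2 fold change over the square root of F. DESeq2 1.42.0 and limma 3.58.1 served as alternatives, and scripts were tested on simulated data. Named genes are the 2 called genes per direction with the largest fold change, at least 1 CPM and no overlap. The members, lists and rules were chosen with earlier results of these data known. Gene lists and cell type markers fixed by symbol could not be applied. Salmon splits shared reads, so near-identical genes are uncertain. The SE includes the spread between libraries as the fit estimates it, while the floor of 3 counts covers counting error only.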

Additional observations from a re-analysis of the deposited data

Results flagged for a closer look

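With all 12 libraries, the effects of the TAL doses differed in 4 AMEX60DD genes, all lower at 1 uM than at 0.1 uM TAL. The 1 uM and 0.1 uM groups were compared directly with each other, which is why the result is listed (edgeR quasi-likelihood test, adjusted p of 0.0236 to 0.0486). The 1 uM TAL libraries were also the deepest, and with all libraries thinned to the smallest total the median over 5 draws was again 4 genes, of which 2 were the same. With 1 library left out, 0 genes were called in 10 of 12 fits (edgeR, 860 to 1793 at an unadjusted p under 0.05). There was 1 without 1 uM TAL replicate 3, which was not among the 4 called with all libraries. Without 0.1 uM TAL replicate 3 there were 13, which included all 4. The 860 were of 23448 AMEX60DD genes tested and the 1793 of 23427, where 5% would be expected to pass with no difference.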

How the results depend on the processing

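With all identifiers fitted, 8 AMEX60DD genes were called between 1 uM TAL and DMSO distal and 4 between 1 uM and 0.1 uM TAL. With DESeq2 size factors these counts became 10 and 6, including all 8 and all 4. Thinned to the smallest total, the medians of 5 draws were 7 and 4 (20833 tested), with 6 and 2 shared. Without a low-count filter (39309 AMEX60DD genes tested, against 21537) the counts became 4 and 2. They became 37 and 25 where each library had to hold at least 10 counts (12874 tested), with 3 of the 8 and 1 of the 4 among them. That filter removes AMEX60DD016524, AMEX60DD021956, AMEX60DD012191, AMEX60DD048317 and AMEX60DD017703, all among the 8. Those of the 8 and of the 4 that passed it were all still called. With AMEX60DD identifiers alone (21504 tested) the counts were 52 and 40. The DESeq2 Wald test gave 241 and 197 (39309 entered). Limma voom with sample quality weights gave 34 and 44 (21537 tested), with 5 of the 8 and 2 of the 4 among them. For the settings that held AMEX60DDU identifiers, the share called over all identifiers was not computed. Both counts became 0 with only the 6 libraries compared and with the 9 distal libraries. In these edgeR fits 1194 to 1978 AMEX60DD genes, of 19311 to 20946 tested, had an unadjusted p under 0.05. A replicate block left 0 and 0 (edgeR, 850 and 1091 of 21537 tested at an unadjusted p under 0.05). With no difference, 5% would be expected to pass. Same-numbered libraries deviated together no more than others (mean r -0.00736 over 18 pairs, against 0.00367 over 36). With 3 replicate numbers and pairs that share libraries, this cannot decide whether the numbers mark a pairing. Leaving out 1 library gave 0 to 10 and 0 to 13. The cause of these changes was not tested. Fewer libraries entered some fits, and the AMEX60DD genes tested differed too (23082 to 23469 with 1 library left out, against 21537). Alternatives with AMEX60DD identifiers alone were added in part after the data were seen. There the 52 became 83 with only the 6 libraries compared (19609 tested, 33 shared) and 20 with the replicate block (21504 tested, 19 shared). The count of 52 became 5 to 62 with 1 library left out (23190 to 23571 tested). Every alternative kept the direction of the 4 named genes.

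The difference in detected genes at equal depth, 148.0 with AMEX60DD identifiers, turned to -539.6 with AMEX60DDU identifiers included and ranged from -61.3 to 339.6 with 1 library left out. The share of the 10 most abundant genes, -5.65 percentage points, ranged from -10.6 to 0.674, the last without DMSO distal replicate 1. The difference in total counts ranged from 2238619 to 3388173. Genes without overlap numbered 3470 with TMM over all identifiers (2497 higher, 973 lower), 3540 with DESeq2 size factors (2072 higher, 1468 lower), 2611 with CPM and no TMM factor (1840 higher, 771 lower), 3225 among genes at a mean of at least 1 CPM (2367 higher, 858 lower) and 3767 with TMM over AMEX60DD identifiers (1920 higher, 1847 lower). Depth limits what can be said of genes under 1 CPM, where the median SE was 1.86.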
